A study of Mus musculus with 45 samples.

Results

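The genes described here encode the folding, secretion and quality-control machinery of the endoplasmic reticulum (ER). Among them are the stress sensors IRE1 and ATF6 and the transcription factor XBP1, which adjust that machinery. These genes are 40 of the 23420 genes in each deposited file. They were taken by symbol from a list of names, a rule that itself uses no measured value. All 40 had a row and all 40 passed the filter on low counts, as did 10287 genes in all. By role they are 3 stress sensors and transcription factors, 12 luminal chaperones and folding factors, 4 protein disulfide isomerases, 11 genes of import and early processing, 1 gene of export in COPII vesicles and 9 genes of ER-associated degradation. RNA came from 45 libraries of mouse dendritic cells, 5 biological replicates in each of 9 groups. Bone marrow of C57BL/6 mice was cultured with 20 ng/ml GM-CSF, and live cells high for CD11c were sorted on day 9. The knockout (KO) cells are labelled Bat3 fl/fl CD11c Cre, Bat3 being an older name of Bag6, a cytosolic chaperone of membrane and secretory proteins. Cre there is driven by the CD11c promoter, the floxed exons are not named, and the other cells are labelled wild type (WT). KO and WT cells each received 4PBA, 4µ8C, lipopolysaccharide (LPS) or medium alone for 8 h, and WT cells alone also received rapamycin. The labels name 1 treatment per group and no vehicle group, and leave unsaid whether the cells given 4µ8C, 4PBA or rapamycin received LPS too.

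Proteins that enter the secretory pathway are threaded through the SEC61 channel, trimmed by signal peptidase, glycosylated by oligosaccharyltransferase and folded with the help of BiP, calreticulin, calnexin and the disulfide isomerases. When unfolded protein builds up, IRE1 splices the mRNA of the transcription factor XBP1 and ATF6 is cut free from the membrane, and both factors raise genes of folding, export and degradation through short promoter elements. Dendritic cells are known to keep the IRE1 and XBP1 branch active without added stress, and 4µ8C blocks the RNase site of IRE1. Phenylbutyrate (4PBA) acts as a chemical chaperone and as an inhibitor of histone deacetylases, LPS is the ligand of the receptor TLR4, and rapamycin blocks mTORC1, a kinase complex that drives protein synthesis and growth. The gene-level values used here do not separate spliced from unspliced Xbp1 mRNA.

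The promoter elements that XBP1 and ATF6 are known to bind were looked up in RefSeq windows of GRCm38.p6 that hold 250 bases before and 50 bases after each gene's start, on both strands. A window was found for 34 of the 40 genes, and those of Atf6, Derl1, Hyou1, Manf, Sec61a1 and Spcs3 were not analysed here. The ER stress response element, ERSE (CCAAT, any 9 bases, then CCACG), was found for 8 of the 34 genes (23.5%), against 39 of all 32851 windows (0.119%). Here and below the shares of the list count genes and the others count single windows, which are unlike units. The list was drawn up as genes of XBP1 and ATF6, so a higher share of their elements can follow from that choice, and was not tested. ERSE-II (ATTGG, any base, then CCACG), which overlaps ERSE in its CCACG end, was in 2 windows (5.88% against 0.0365%), those of Dnajb11 and Herpud1. The element UPRE (TGACGTGG) was in 1 window, that of Sec24d (2.94% against 0.676%). The genes with ERSE were Hspa5, Calr, Hsp90b1, Pdia6, Creld2, Canx, Dnajc3 and Syvn1. The windows of the 5 ERSE genes that fell with rapamycin, and the short element of Dnajb11, the gene with the largest KO against WT differences, are shown with the motif in capitals. For Hspa5 all 250 bases before the start at chr2:34771840-34772089 on the plus strand are given, with the element at -65 to -47 from the start base.
Hspa5: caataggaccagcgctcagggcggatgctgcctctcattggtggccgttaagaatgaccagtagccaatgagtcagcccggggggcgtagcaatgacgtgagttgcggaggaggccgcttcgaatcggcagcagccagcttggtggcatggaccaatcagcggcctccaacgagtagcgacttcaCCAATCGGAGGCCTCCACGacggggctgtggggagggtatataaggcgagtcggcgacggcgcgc
The other stretches hold the element with 20 bases on each side, and 9 for Dnajb11. They are Calr at chr8:84847055-84847113 (minus strand), Hsp90b1 at chr10:86705513-86705676 (minus strand, 2 elements), Pdia6 at chr12:17266471-17266529 (plus strand), Creld2 at chr15:88819500-88819558 (plus strand) and Dnajb11 at chr16:22857843-22857871 (plus strand). In Calr and Creld2, and in the second copy of Hsp90b1, the element reads on the opposite strand, as CGTGG followed by ATTGG.
Calr: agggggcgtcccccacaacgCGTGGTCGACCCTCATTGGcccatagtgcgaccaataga
Hsp90b1: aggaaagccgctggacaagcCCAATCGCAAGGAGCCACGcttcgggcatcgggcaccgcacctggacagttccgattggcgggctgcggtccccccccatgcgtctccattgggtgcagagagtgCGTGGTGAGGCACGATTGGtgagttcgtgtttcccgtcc
Pdia6: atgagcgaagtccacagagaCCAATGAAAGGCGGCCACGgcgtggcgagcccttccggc
Creld2: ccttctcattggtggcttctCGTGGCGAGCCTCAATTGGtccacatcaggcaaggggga
Dnajb11: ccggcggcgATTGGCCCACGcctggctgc
Counted from the start base, the Calr element lies at -162 to -144, those of Hsp90b1 at -212 to -194 and -107 to -89, that of Pdia6 at -98 to -80, that of Creld2 at -126 to -108 and that of Dnajb11 at 7 to 17. A match is a description of letters and shows no binding.

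Levels are compared between genes only in TPM, RSEM's transcript abundance, which divide out transcript length. P4hb, the classical protein disulfide isomerase, had the highest mean over the 9 groups, 524 TPM, and ranked first in each of them. Hspa5, which encodes the chaperone BiP, followed with 336 TPM, ahead of the small channel subunits Sec61b (231 TPM) and Sec61g (226 TPM) and of Serp1 (216 TPM), which guards new membrane proteins at the channel. Xbp1 had a mean of 173 TPM, far above the genes of the sensors, Ern1 for IRE1 (5.60 TPM) and Atf6 (5.23 TPM). At the low end stood Hyou1, a partner chaperone of BiP (3.93 TPM), Srp54a of the signal recognition particle (3.43 TPM) and Edem3, a mannosidase-like degradation factor (0.674 TPM). Srp54a has the copies Srp54b and Srp54c, with 57 to 361 and 76 to 394 counts per library against 0 to 83 for Srp54a, so its own level is uncertain. The members that varied most between group means were Herpud1, a stress-induced degradation factor (4.50-fold), Dnajb11, a co-chaperone of BiP (4.25-fold), and Xbp1 (3.40-fold), while Derl2 and Spcs1 varied least (1.21-fold each). The summed TPM of the 40 genes was lowest with 4µ8C in WT cells, 2653 ± 295, and highest in KO medium cells, 3998 ± 276, against 3651 ± 296 in WT medium cells (SD, n = 5 each). These spreads and sums lack the scaling between libraries (TMM) that the tests below use. TMM factors were 0.717 to 0.937 in WT 4µ8C libraries and 0.965 to 1.18 in WT medium libraries. With that scaling the median log2 fold change of the 40 genes between these 2 groups was -0.18. Because these are bulk samples, fewer cells of a type and less RNA per cell cannot be told apart.

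**Figure D1:**
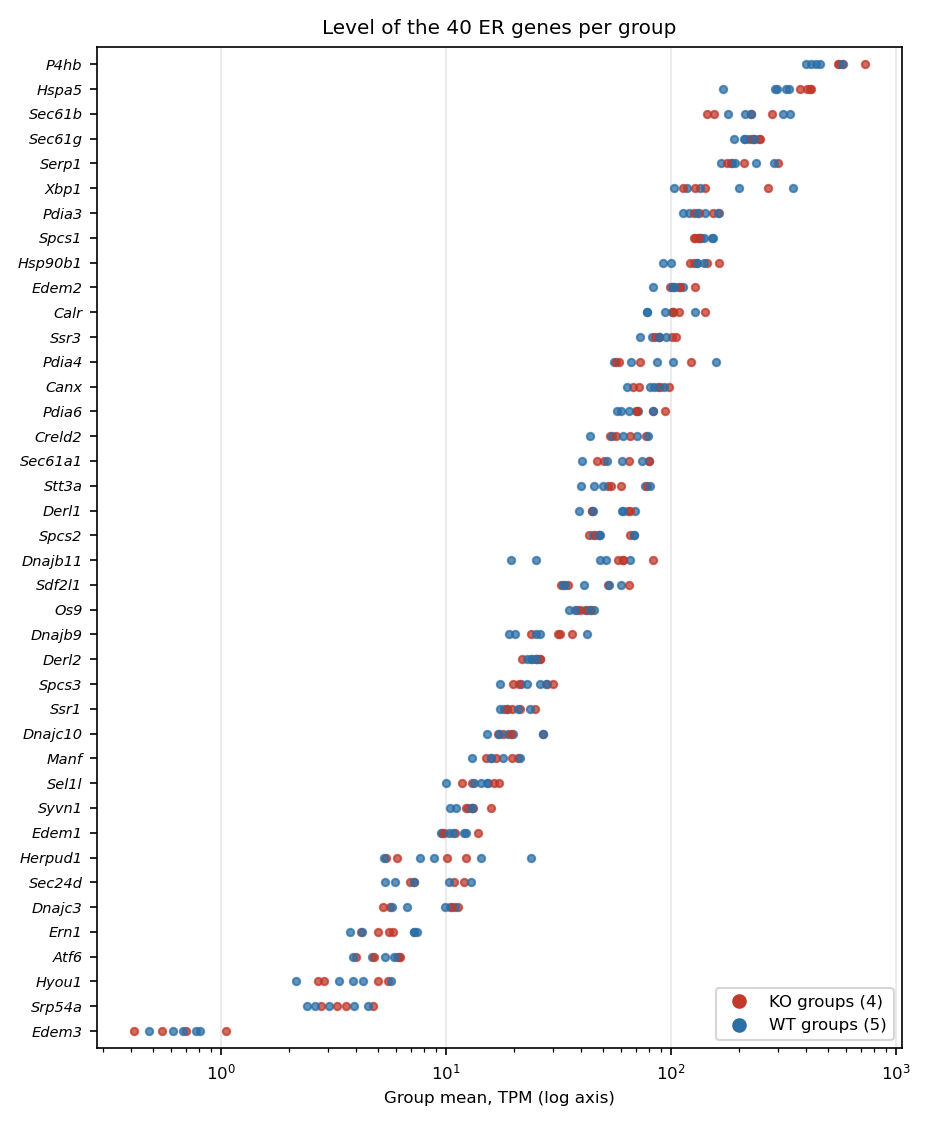
Mean TPM of each of the 40 genes in each of the 9 groups, on a log axis, with 1 point per group mean (n = 5 libraries), KO groups in red and WT groups in blue, and genes in order of their mean over groups. Levels span from Edem3 at 0.674 TPM to P4hb at 524 TPM, and the points of Herpud1, Dnajb11 and Xbp1 spread most.

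Facts of the libraries that touch every result are these. The libraries held between 1509219 and 4737736 expected counts. Bag6, the targeted gene, averaged 7.53 to 9.75 CPM (counts scaled to library size) in the 4 KO groups and 12.7 to 14.6 CPM in the WT groups with the same treatments, and no KO against WT difference passed the test across all genes (log2 fold changes -0.91 to -0.40, edgeR adjusted p = 0.072 to 0.52). All 10 listed LPS response genes were detected, and their summed CPM was 20990 to 43320 in the 4PBA, 4µ8C and LPS groups, 3661 to 5618 with rapamycin and 5406 to 10940 in medium. The groups labelled 4µ8C and 4PBA thus carried LPS response mRNA at a level the medium groups did not, and each inhibitor is set against LPS as well as against medium below. Summed markers of granulocytes (3.67 to 24.9 CPM), T and NK cells (1.87 to 21.6), mast cells (0 to 5.37) and erythroid cells (0 to 1.78) were low in every library. Of the markers of B cells and of plasma cells, which are rich in ER, Sdc1 was the only one tested, and Mzb1, Pou2af1 and Tnfrsf17 had no count in any library. Summed dendritic cell markers ran from 1792 to 6224 CPM and summed macrophage markers from 1149 to 2960 CPM. Library codes were read as plate positions, which the labels do not state, and 17 libraries carried outer codes (row A, first or last column) and 28 inner ones. All WT medium and WT LPS libraries were outer, all KO medium, WT 4PBA and KO 4PBA libraries inner, and all WT codes precede all KO codes, so genotype and code order cannot be told apart. The WT medium and WT LPS libraries all lay in row A, and no other library did. A term for the code, used below, is estimated within groups that hold both kinds, so it cannot adjust for row A.

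**Figure D2:**
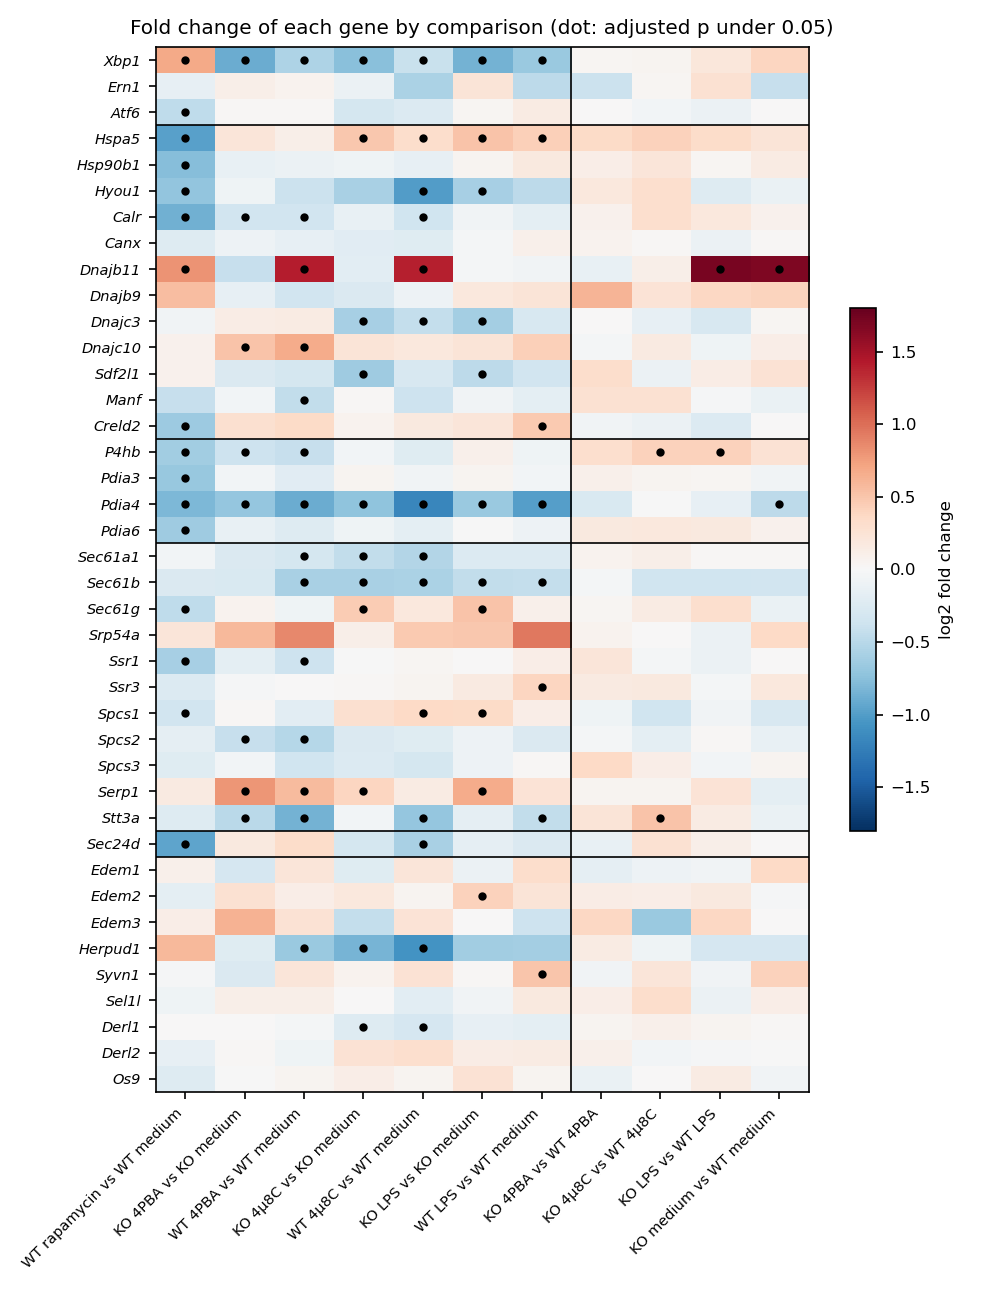
Log2 fold changes (colour scale, red higher and blue lower) of the 40 genes (rows, with lines between roles) in the comparisons of each treatment with medium and of KO with WT (columns), with a dot where the adjusted p is under 0.05. The column for rapamycin against medium holds 16 dots, 14 of them on lower values, and the 4 columns of KO against WT hold 0, 2, 2 and 2, from 4PBA to medium.

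Differences are given as log2 fold changes with their standard error (SE) from edgeR's quasi-likelihood test on counts, and a gene is called at a Benjamini-Hochberg adjusted p under 0.05 over all 10287 genes tested in that comparison. Values per library are CPM after TMM scaling, in the order of replicates 1 to 5. Where members at an unadjusted p under 0.05 are counted, the share of all genes under that limit was not computed. The shares given beside them are at the adjusted p.

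More members were called lower in WT cells given rapamycin, 14, than in the other comparisons of a treatment with medium, 4 to 11. Of the 40 genes, 16 (40%) were called against WT medium, 2 higher and 14 lower, where 23.2% of all tested genes were called, 9.68% higher and 13.5% lower. All 4 disulfide isomerases fell, and so did 5 of 12 luminal chaperones, 3 of 11 genes of import and the export gene Sec24d, while 0 of 9 degradation genes was called. Called higher were Xbp1 and 1 luminal chaperone, Dnajb11 (log2 fold change 0.81, SE 0.23, adjusted p = 0.007). The median log2 fold change of the 40 was -0.22, against -0.02 over all tested genes. Hspa5, which encodes BiP, had 199.9, 245, 201, 257 and 289.7 CPM with rapamycin, against 591, 522, 358, 363 and 517 CPM in medium. Every rapamycin library lay below every medium library (log2 fold change -0.98, SE 0.13, adjusted p = 2.9e-08). Calr, the calcium-binding lectin chaperone, had 79.6, 71.7, 78.0, 81.4 and 96.1 CPM with rapamycin, against 156, 144, 139, 140.3 and 161 CPM in medium. The groups again did not overlap (log2 fold change -0.86, SE 0.12, adjusted p = 1.2e-07). Hsp90b1, the ER form of Hsp90 that folds Toll-like receptors and integrins, had 132, 149, 153, 169 and 103 CPM with rapamycin, against 253, 254, 214, 238 and 237 CPM in medium. It fell without overlap (log2 fold change -0.76, SE 0.14, adjusted p = 2.4e-05).

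Among the disulfide isomerases, Pdia3, which acts on glycoproteins and in MHC class I loading, had 170.2, 160.4, 169, 173 and 149.9 CPM with rapamycin, against 282, 274, 243, 238 and 286 CPM in medium. All rapamycin values were lower (log2 fold change -0.69, SE 0.11, adjusted p = 5.1e-06). P4hb had 576, 614, 607, 588 and 549 CPM with rapamycin, against 1151, 1011, 731, 742 and 903 CPM in medium, again with no overlap (log2 fold change -0.63, SE 0.11, adjusted p = 1.1e-05). Pdia4 had 139, 139, 146, 139 and 131 CPM with rapamycin, against 267, 277, 223, 217 and 233 CPM in medium. The rapamycin libraries were close to each other and all below the medium ones (log2 fold change -0.81, SE 0.15, adjusted p = 2.2e-05). Pdia6 averaged 68.8 ± 7.10 CPM with rapamycin and 107 ± 17.6 CPM in medium (SD, n = 5 each) and also fell (log2 fold change -0.64, SE 0.12, adjusted p = 6.9e-05). Of the other chaperones, Creld2, a stress-inducible folding factor, averaged 30.2 ± 1.82 CPM with rapamycin and 47.2 ± 9.39 CPM in medium (SD, n = 5 each) (log2 fold change -0.65, SE 0.16, adjusted p = 0.0016), and Hyou1 fell with overlapping groups (log2 fold change -0.71, SE 0.24, adjusted p = 0.022), a call kept in 6 of 10 fits that left out 1 library.

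In import, Ssr1, a subunit of the translocon-associated protein complex, averaged 94.8 ± 12.4 CPM with rapamycin and 143 ± 22.6 CPM in medium (SD, n = 5 each) (log2 fold change -0.60, SE 0.12, adjusted p = 0.00013). Sec61g and Spcs1, a subunit of signal peptidase, fell less (log2 fold changes -0.45 and -0.34, adjusted p = 0.0054 and 0.028), and Spcs1 kept its call in 7 of 10 fits that left out 1 library. Sec24d, the cargo adaptor of COPII vesicles, had 13.8, 8.55, 10.5, 8.23 and 23.4 CPM with rapamycin, against 22.8, 24.3, 25.8, 29.0 and 24.1 CPM in medium, and 1 rapamycin library overlapped the medium range (log2 fold change -0.95, SE 0.21, adjusted p = 0.00044). Atf6 fell as well (log2 fold change -0.46, adjusted p = 0.047), a call that was lost on leaving out 9 of the 10 libraries in turn. Xbp1 moved the other way: its mRNA had 425, 449, 506, 418 and 341 CPM with rapamycin, against 111, 309.8, 338, 316 and 260.4 CPM in medium. Every rapamycin library exceeded every medium library (log2 fold change 0.68, SE 0.16, adjusted p = 0.00094). Ern1 was not called (log2 fold change -0.14, adjusted p = 0.71), and neither was Dnajb9, a co-chaperone that restrains IRE1 (0.55, 0.053).

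All 8 genes with an ERSE had negative log2 fold changes with rapamycin, from -0.98 to -0.02 with a median of -0.64, and 5 of them were called. The 26 genes with a window and no ERSE had a median of -0.15, with 2 called higher and 7 lower. Both sets were chosen with the results known, and no test was run between them. Summed dendritic cell markers were 1792 to 2744 CPM with rapamycin, against 2968 to 3751 CPM in medium, and 1 of 7 tested markers was called, H2-Ab1 (log2 fold change -0.86). Summed macrophage markers were 2248 to 2940 CPM with rapamycin, against 2010 to 2960 CPM in medium, with 1 of 8 called higher and 3 lower. The part of these markers in the result was not tested. Rapamycin libraries had 2 outer and 3 inner codes and medium libraries outer codes only. With a term for the code 14 members were called, 13 of the 16 and 1 other, and Dnajb11, Sec61g and Spcs1 were not. With the outer codes alone 10 were called, 9 of them among the 16. Hspa5 was then at -0.92 with the term and at -1.04 with outer codes alone, and Xbp1 at 0.69 and 0.79.

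**Figure D3:**
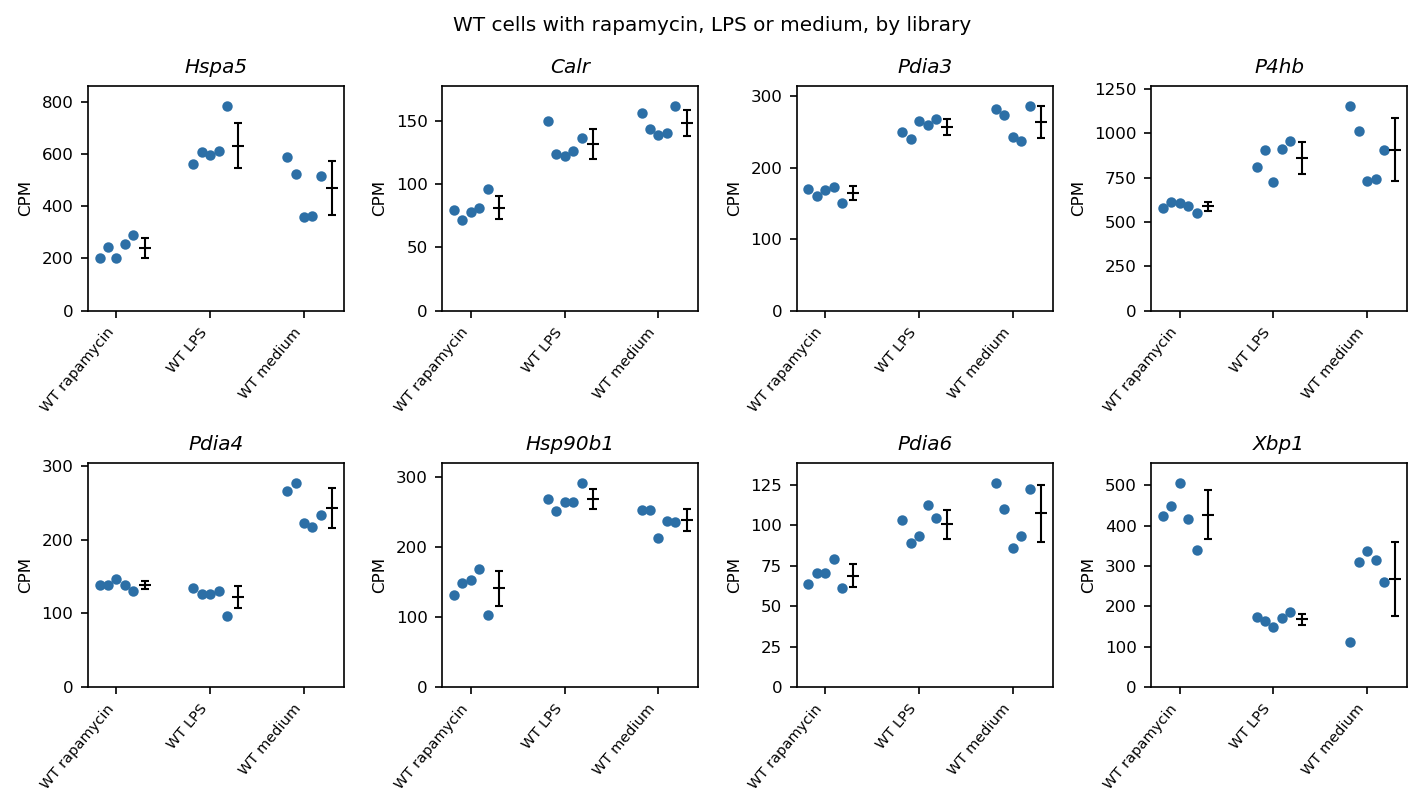
CPM of 8 members in each WT library given rapamycin, LPS or medium, 1 panel per gene, with points for libraries and bars for group means ± SD (n = 5). Hspa5, Calr, Pdia3, P4hb, Pdia4, Hsp90b1 and Pdia6 lie lower with rapamycin than in medium without overlap, and Xbp1 lies higher with rapamycin (341 to 506 CPM) than in medium or with LPS.

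Set against WT LPS, the same 5 rapamycin libraries gave 18 called members (45%), 3 higher and 15 lower, where 56.3% of all genes were called, 29.6% higher and 26.7% lower. Hspa5 differed most: 199.9, 245, 201, 257 and 289.7 CPM with rapamycin stood against 562, 607, 595, 612 and 783 CPM with LPS (log2 fold change -1.41, SE 0.13, adjusted p = 1.1e-13). Xbp1 had 174, 163, 149, 172 and 186 CPM with LPS, all below the rapamycin values given for medium (log2 fold change 1.34, SE 0.16, adjusted p = 7.7e-10). Creld2 had 30.5, 33.0, 30.6, 28.7 and 28.5 CPM with rapamycin, against 66.7, 60.1, 71.2, 54.0 and 75.4 CPM with LPS (log2 fold change -1.12, SE 0.16, adjusted p = 5.6e-08). In these 3 genes the groups did not overlap. Herpud1 rose (log2 fold change 1.20, SE 0.27, adjusted p = 0.00016), whereas Syvn1, the ubiquitin ligase of the degradation complex, and Edem2, a mannosidase-like factor, fell (-0.52 and -0.41). The comparison shares the rapamycin libraries with the one against medium, so the pair is not independent.

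A smaller share of the ER genes than of all genes was called with LPS in both genotypes, a difference that was not tested. In WT cells 8 members (20%) were called against medium, 4 higher and 4 lower, where 40.1% of all genes were called, 18.8% higher and 21.3% lower. In KO cells 11 members (27.5%) were called, 5 higher and 6 lower, where 35.2% of all genes were called, 16.7% higher and 18.5% lower. With the size factors of DESeq2 that split was 5 higher and 4 lower. Xbp1 fell in both. In KO cells it had 181, 217, 216, 158 and 200.1 CPM with LPS, against 323, 417, 361, 320.2 and 325 CPM in medium, with no overlap (log2 fold change -0.84, SE 0.16, adjusted p = 3.8e-05). In WT cells the LPS values given above stood against the medium values given for rapamycin, and replicate 1 of WT medium, at 111 CPM, lay below all LPS libraries (log2 fold change -0.66, SE 0.16, adjusted p = 0.00083). Hspa5 rose in both genotypes. In KO cells it had 782, 726, 807, 779 and 864 CPM with LPS, against 576, 624, 555, 519 and 492 CPM in medium, without overlap (log2 fold change 0.52, SE 0.12, adjusted p = 9e-04). In WT cells the means were 632 ± 86.7 CPM with LPS and 469.9 ± 105 CPM in medium (SD, n = 5 each), and the groups overlapped (log2 fold change 0.43, SE 0.12, adjusted p = 0.0049).

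Pdia4 fell with LPS in both genotypes as well. It had 80.8, 114, 102, 99.6 and 157 CPM with LPS and 118, 208, 197, 200.1 and 159.6 CPM in medium in KO cells, where 1 library of each group overlapped (log2 fold change -0.67, SE 0.15, adjusted p = 0.00028). In WT cells it had 134, 126, 126, 130.1 and 96.2 CPM with LPS, all below the medium values (log2 fold change -0.99, SE 0.15, adjusted p = 3e-07). Stt3a, the catalytic subunit of the oligosaccharyltransferase that works at the channel, fell in WT cells to 110.2, 94.3, 96.3, 93.0 and 105 CPM with LPS, against 127, 138, 130.2, 121 and 157 CPM in medium (log2 fold change -0.44, SE 0.11, adjusted p = 0.0013). Its groups did not overlap. Syvn1 rose in WT cells to 29.9, 31.6, 40.5, 27.8 and 35.6 CPM with LPS, against 26.0, 23.5, 20.1, 20.7 and 26.1 CPM in medium, without overlap (log2 fold change 0.50, SE 0.16, adjusted p = 0.0086). Creld2 rose there too, with means of 65.5 ± 8.57 CPM with LPS and 47.2 ± 9.39 CPM in medium (SD, n = 5 each) (log2 fold change 0.47, SE 0.16, adjusted p = 0.013). Ssr3, a partner of Ssr1, rose and Sec61b fell (log2 fold changes 0.38 and -0.42). With 1 library left out in turn, Ssr3 kept its call in 7, Sec61b in 8 and Creld2 in 9 of 10 fits.

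In KO cells Serp1 rose to 418, 342, 308, 432 and 503 CPM with LPS, against 251, 264, 261, 221 and 269 CPM in medium, with no overlap (log2 fold change 0.66, SE 0.13, adjusted p = 8.8e-05). Dnajc3, a J-domain co-chaperone of BiP, fell to 25.5, 17.7, 19.7, 24.9 and 22.8 CPM with LPS, against 32.3, 34.4, 37.9, 31.2 and 32.4 CPM in medium (log2 fold change -0.61, SE 0.15, adjusted p = 0.00083). Sec61g rose to 94.8, 118, 109.6, 131 and 112 CPM with LPS, against 91.8, 80.4, 77.8, 72.3 and 71.7 CPM in medium (log2 fold change 0.52, SE 0.13, adjusted p = 0.00086). In all 3 genes every LPS library lay on 1 side of every medium library. Edem2 and Spcs1 also rose (0.42 and 0.34), and Sdf2l1, a BiP-binding factor, Hyou1 and Sec61b fell (-0.48, -0.60 and -0.44). The Hyou1 call, at an adjusted p that rounds to 0.05, was lost on leaving out 8 of the 10 libraries in turn. In such fits Sdf2l1 kept its call in 4 of 10, and Sec61b and Spcs1 in 7 each. None of these gene by genotype patterns is shown to differ: 0 members were called for the difference of the LPS response between KO and WT cells (edgeR, where 0.00972% of all genes were), 5 had an unadjusted p under 0.05, and DESeq2 called 0. Those 5 were Ern1 (0.70), Sec61g (0.42), Serp1 (0.42), Edem1 (-0.42) and Syvn1 (-0.47), as the KO minus WT difference of log2 fold changes.

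4µ8C is the compound aimed at the IRE1 and XBP1 branch. Against medium, 14 members (35%) were called in WT cells, 3 higher and 11 lower, where 40.1% of all genes were called, 20% higher and 20.1% lower. In KO cells 11 (27.5%) were called, 3 higher and 8 lower, where 32.7% of all genes were called, 16.1% higher and 16.6% lower. Pdia4 fell in both genotypes. It had 74.6, 116, 118, 129.5 and 99.1 CPM in KO and 108, 115, 119.8, 110.1 and 88.8 CPM in WT cells with 4µ8C, against the medium values given above for each genotype. In WT cells it fell without overlap (log2 fold change -1.17, SE 0.15, adjusted p = 9e-09), and in KO cells replicate 4 with 4µ8C reached the range of medium (log2 fold change -0.72, SE 0.15, adjusted p = 0.00013). Sec61a1, the pore of the import channel and a known XBP1 target, had 81.9, 107, 99.0, 107 and 94.7 CPM with 4µ8C, against 157, 153, 133, 123 and 141 CPM in medium in WT cells. It fell without overlap there (log2 fold change -0.53, SE 0.11, adjusted p = 0.00016) and fell in KO cells with overlap (log2 fold change -0.44, SE 0.11, adjusted p = 0.0018). Stt3a had 86.1, 85.0, 100.4, 55.5 and 86.5 CPM with 4µ8C in WT cells, all below medium (log2 fold change -0.69, SE 0.11, adjusted p = 1.6e-06). Xbp1 itself had 220.1, 223, 234, 150.2 and 213 CPM in KO cells with 4µ8C, all below medium (log2 fold change -0.75, SE 0.16, adjusted p = 0.00023), and in WT cells it averaged 201 ± 32.3 CPM with 4µ8C and 267 ± 91.8 CPM in medium (SD, n = 5 each) (log2 fold change -0.41, SE 0.16, adjusted p = 0.039). With 1 library left out in turn, that WT call was kept in 5 of 10 fits (adjusted p up to 0.15), and with the library code as a term it was not called (-0.39, adjusted p = 0.09).

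Herpud1 had 3.80, 8.50, 8.25, 7.40 and 9.32 CPM with 4µ8C, against 16.4, 15.0, 24.9, 14.5 and 8.69 CPM in medium in WT cells. It fell there with overlap in 1 medium library (log2 fold change -1.07, SE 0.29, adjusted p = 0.0025) and fell in KO cells (log2 fold change -0.84, SE 0.28, adjusted p = 0.019). Hyou1 fell in WT cells, with means of 7.49 ± 2.92 CPM with 4µ8C and 15.9 ± 4.67 CPM in medium (SD, n = 5 each) (log2 fold change -1.01, SE 0.26, adjusted p = 0.0013). Derl1, a channel component of degradation, fell in both genotypes by small amounts (-0.23 in KO and -0.30 in WT cells). Dnajc3 fell in both, to 25.6, 21.2, 25.4, 17.3 and 21.9 CPM in KO cells with 4µ8C, all below medium (log2 fold change -0.60, SE 0.15, adjusted p = 0.00098), and with overlap in WT cells (log2 fold change -0.42, SE 0.15, adjusted p = 0.019). Sec61b fell in both (-0.59 in KO and -0.57 in WT cells). Hspa5 rose in both, to 733, 873, 763, 881 and 620.2 CPM in KO cells with 4µ8C, where 1 medium library overlapped (log2 fold change 0.48, SE 0.12, adjusted p = 0.0019), and it rose in WT cells too (log2 fold change 0.31, SE 0.13, adjusted p = 0.041). Dnajb11 rose most in WT cells, with overlap (log2 fold change 1.40, SE 0.23, adjusted p = 3.9e-06). With the library code as a term it was at 0.80 (adjusted p = 0.00011), and with outer codes alone at 0.65 (0.096). Spcs1 also rose in WT cells, and in KO cells Sec61g and Serp1 rose and Sdf2l1 fell. Calr and Sec24d fell in WT cells (-0.35 and -0.58) and were not called in KO cells, and the difference between genotypes was not called in either (adjusted p = 0.75 and 0.86). Replicate 4 of WT 4µ8C had the lowest depth of all libraries and stood apart in several members. Without it Spcs1, Xbp1, Hspa5 and Sec24d were not called in WT cells against medium (adjusted p = 0.14, 0.11, 0.095 and 0.085). With 1 library left out in turn, Hspa5 kept its call in 5, Sec24d in 7 and Dnajc3 in 8 of 10 fits in WT cells. In KO cells Derl1 kept its call in 3, Herpud1 in 6 and Serp1 in 7 of 10. With the code term Dnajc3 was not called in WT cells (-0.38, adjusted p = 0.07), nor was Serp1 in KO cells (0.30, 0.077).

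Because the 4µ8C groups carried LPS response mRNA, they were also set against LPS. There 1 member (2.5%) was called in WT cells, Dnajb11, where 0.204% of all genes were called, all of them higher, and 0 members in KO cells, where 0.0292% were. In KO cells 2 members had an unadjusted p under 0.05, Dnajb9 (log2 fold change -0.45, adjusted p = 0.6) and Serp1 (-0.28, 0.58), and DESeq2 called 0. In WT cells 6 had one: Dnajb11, Atf6 (-0.40), Hsp90b1 (-0.32), Ssr3 (-0.34), Sec61a1 (-0.28) and Stt3a (-0.26), the last 5 at adjusted p = 0.58 to 0.63. Of the 40 members, 32 were negative and 8 positive in KO cells, and 32 and 8 in WT cells, with medians of -0.14 and -0.16. Of all tested genes 48.4% and 48.1% were negative, with medians of 0.01 in both. These counts describe the list and were not tested. Some of the known XBP1 targets in the list gave log2 fold changes in KO and in WT cells of -0.45 (SE 0.22) and -0.33 (SE 0.23) for Dnajb9, -0.16 (SE 0.21) and -0.32 (SE 0.22) for Sec24d, -0.19 (SE 0.11) and -0.28 (SE 0.12) for Sec61a1, and -0.11 (SE 0.14) and -0.10 (SE 0.14) for Edem1. They were picked from a list that holds other XBP1 targets and do not stand for the whole list. Over all 40 members values ran from -0.45 to 0.13 in KO and from -0.54 to 1.45 (Dnajb11) in WT cells. WT LPS libraries were all outer, and WT 4µ8C libraries 2 outer and 3 inner. With the code term 0 members were called in WT cells. Dnajb9, Sec24d, Sec61a1 and Edem1 were not called in either genotype. A missed threshold does not show that 4µ8C left them as they were.

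With 4PBA, genes of import and early processing were called in both directions. Against medium, 14 members (35%) were called in WT cells, 3 higher and 11 lower, where 43.7% of all genes were called, 22.4% higher and 21.3% lower. In KO cells 8 (20%) were called, 2 higher and 6 lower, where 33.2% of all genes were called, 17% higher and 16.2% lower. Serp1 rose in both. It had 443, 493, 472, 351 and 434 CPM with 4PBA in KO cells, all above medium (log2 fold change 0.79, SE 0.13, adjusted p = 5.9e-06). In WT cells it had 402, 387, 400.4, 488 and 448 CPM with 4PBA, against 215, 269, 325, 313 and 310.3 CPM in medium, again without overlap (log2 fold change 0.57, SE 0.13, adjusted p = 0.00044). Stt3a fell in both. It had 76.2, 91.2, 87.0, 92.8 and 93.3 CPM with 4PBA, against 111, 133, 129, 129 and 116 CPM in medium in KO cells (log2 fold change -0.48, SE 0.11, adjusted p = 0.00052). In WT cells it had 71.3, 65.5, 69.6, 84.1 and 83.8 CPM with 4PBA (log2 fold change -0.84, SE 0.11, adjusted p = 1.8e-08), and in neither genotype did the groups overlap.

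Spcs2, a further signal peptidase subunit, had 68.7, 91.2, 91.0, 80.2 and 75.9 CPM with 4PBA, against 97.5, 122, 121, 107 and 96.9 CPM in medium in KO cells. In WT cells it had 80.4, 85.2, 81.7, 90.0 and 81.5 CPM with 4PBA, against 125, 132, 106, 108 and 128 CPM in medium. It fell without overlap in both genotypes (log2 fold change -0.42, SE 0.13, adjusted p = 0.008 in KO and log2 fold change -0.52, SE 0.13, adjusted p = 0.00068 in WT cells). P4hb fell in both as well (-0.37 in KO and -0.41 in WT cells), as did Pdia4, which had 80.9, 126, 113, 102 and 121 CPM in KO and 144, 138, 145, 125 and 106 CPM in WT cells with 4PBA (log2 fold change -0.70, SE 0.15, adjusted p = 2e-04 in KO and log2 fold change -0.89, SE 0.15, adjusted p = 2.1e-06 in WT cells). Xbp1 had 189, 208, 207, 172 and 161 CPM in KO and 190.0, 187, 166, 189 and 181 CPM in WT cells with 4PBA. It fell in both, without overlap in KO cells (log2 fold change -0.90, SE 0.16, adjusted p = 1.7e-05) and with the overlap of WT medium replicate 1 in WT cells (log2 fold change -0.55, SE 0.16, adjusted p = 0.0045). Dnajc10, a disulfide reductase with a J domain, rose in both (0.51 and 0.67), and Calr fell in both (-0.34 each). Called in WT cells were also Dnajb11, higher, and Sec61b, Ssr1, Sec61a1, Herpud1 and Manf, a secreted stress factor, lower (-0.66 to -0.31). WT 4PBA libraries were all inner and WT medium libraries all outer, so within that pair treatment and code cannot be told apart. With a code term fitted over all groups, 6 of the 14 were called, and Calr, Dnajc10, Manf, Sec61a1, Sec61b, Ssr1, Spcs2 and Herpud1 were not, while KO 4PBA and KO medium libraries were all inner. Dnajb11 was at 0.57 with the term, against 1.41 without it. With 1 library left out in turn, Manf and Herpud1 each kept their call in 5, Sec61a1 in 6 and Calr in 9 of 10 fits in WT cells, and Dnajc10 in 3 and Calr in 6 of 10 in KO cells.

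**Figure D4:**
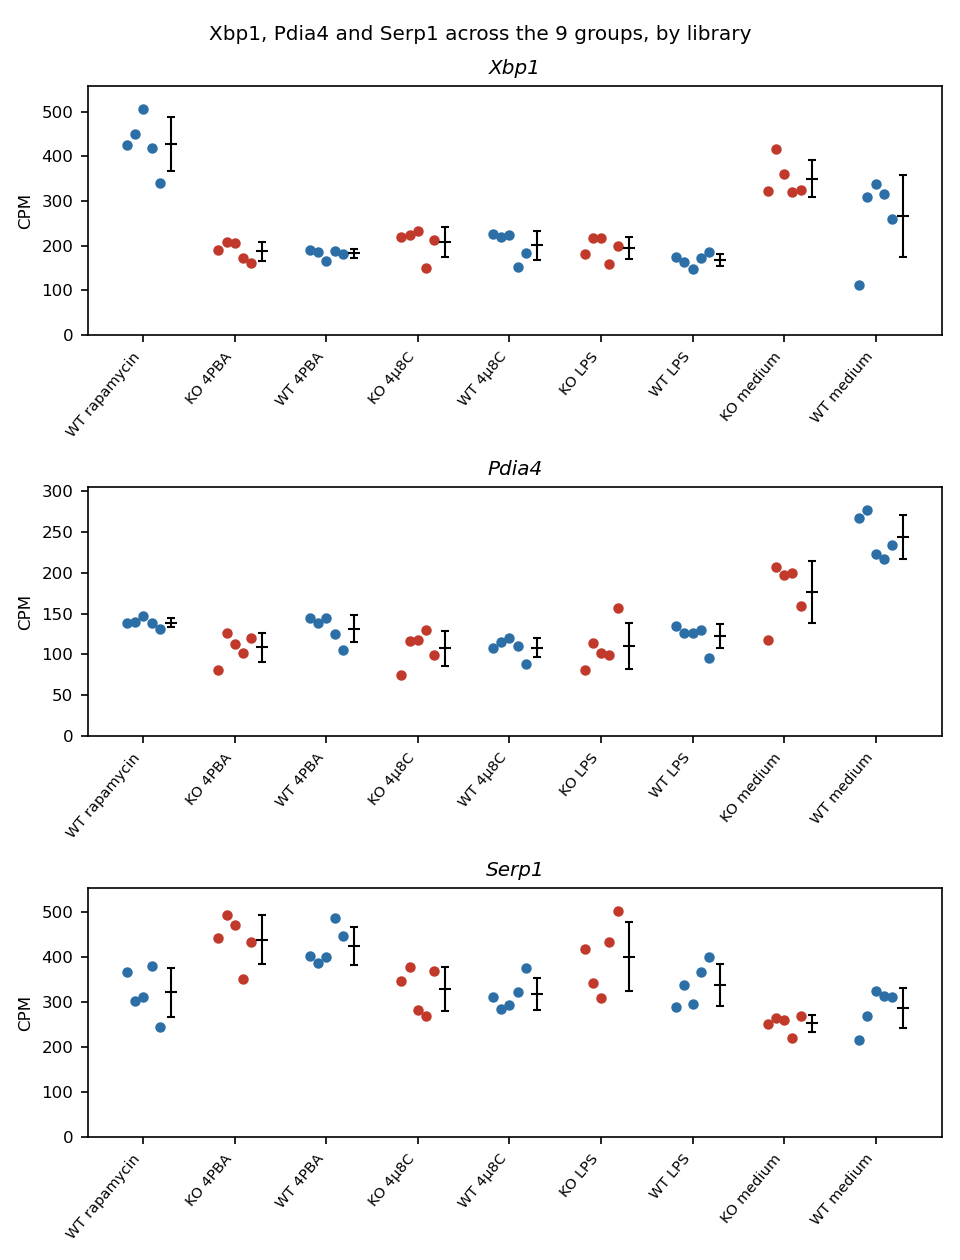
CPM of Xbp1, Pdia4 and Serp1 in each of the 45 libraries by group, with KO libraries in red, WT libraries in blue and bars for group means ± SD (n = 5). Xbp1 is at most 234 CPM in all 4PBA, 4µ8C and LPS libraries, the mean of Pdia4 is highest in WT medium, and the mean of Serp1 is highest in KO 4PBA.

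Against LPS, 4PBA gave 8 called members (20%) in WT cells, 3 higher and 5 lower, where 27% of all genes were called, 15% higher and 12% lower. In KO cells 5 members (12.5%) were called, 1 higher and 4 lower, where 24.4% of all genes were called, 12.9% higher and 11.5% lower. Replicate numbers pair the KO 4PBA and KO LPS libraries, and blocked by replicate 8 were called there, 1 higher and 7 lower. Dnajc3 had 37.9, 33.8, 43.2, 37.4 and 32.0 CPM with 4PBA in KO cells, all above the LPS values (log2 fold change 0.74, SE 0.15, adjusted p = 0.00015), and it rose in WT cells too (log2 fold change 0.44, SE 0.15, adjusted p = 0.02). P4hb in KO cells had 814, 840.3, 803, 878 and 847 CPM with 4PBA, against 1039, 1221, 1181, 1118 and 1196 CPM with LPS. It fell without overlap (log2 fold change -0.46, SE 0.11, adjusted p = 0.0012), and fell in WT cells with overlap (log2 fold change -0.34, SE 0.11, adjusted p = 0.016). Stt3a also fell in both (-0.33 in KO and -0.41 in WT cells). Ssr1, Ssr3 and Hspa5 fell in WT cells (-0.49, -0.38 and -0.33), and Sec61g and Spcs1 in KO cells (-0.45 and -0.31). Sec24d rose in WT cells (0.59), with means of 31.3 ± 5.49 CPM with 4PBA and 21.3 ± 5.25 CPM with LPS (SD, n = 5 each). WT 4PBA libraries were all inner and WT LPS libraries all outer, so treatment and code cannot be told apart there. With the code term 3 members were called in WT cells, of which Dnajb11 and Stt3a were among the 8, and Dnajc3, P4hb, Ssr1, Ssr3, Hspa5 and Sec24d were not (adjusted p = 0.055 to 0.48). In KO cells Spcs1 was not called with the term (-0.27, adjusted p = 0.076). With 1 library left out in turn, Ssr3 kept its call in 1, Hspa5 in 3, Sec24d in 6 and Dnajc3 in 7 of 10 fits in WT cells, and Spcs1 in 1 and Stt3a in 7 of 10 in KO cells.

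Few of these genes differed between KO and WT cells. KO against WT cells gave 2 of 40 members (5%) in medium, 1 higher and 1 lower, where 8.92% of all genes were called, 6.61% higher and 2.31% lower. With LPS it gave 2 (5%), both higher, where 6.06% were called, 4.31% higher and 1.75% lower. With 4µ8C it gave 2 (5%), both higher, where 0.953% were called, 0.428% higher and 0.525% lower. With 4PBA, the only pair with all codes inner, 0 members were called by edgeR, where 0.496% were, 0.185% higher and 0.311% lower. There 5 members had an unadjusted p under 0.05, Hspa5 (0.35), Dnajb9 (0.61), P4hb (0.30), Spcs3 (0.36) and Stt3a (0.23), at adjusted p = 0.23 to 0.44, and DESeq2 called 0. The share of all genes at that unadjusted limit was not computed, so this count has no background beside it.

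P4hb was the gene called under 2 treatments besides Dnajb11. With LPS it had 1039, 1221, 1181, 1118 and 1196 CPM in KO cells, against 809.7, 905, 725, 909 and 955 CPM in WT cells, without overlap (log2 fold change 0.42, SE 0.11, adjusted p = 0.01). WT LPS libraries were all outer and 4 of the 5 KO LPS libraries inner, and with the code term P4hb was at 0.41 and not called (adjusted p = 0.092), nor was it without replicate 3 of WT LPS (adjusted p = 0.052). With 4µ8C it had 926, 1074, 1108, 1099 and 1012 CPM in KO cells, against 836, 884, 789, 648 and 747 CPM in WT cells, again without overlap (log2 fold change 0.42, SE 0.11, adjusted p = 0.044). The second call was lost on leaving out 8 of the 10 libraries in turn. Its log2 fold change was 0.30 with 4PBA and 0.25 in medium, neither called. With 4µ8C, Stt3a was higher in KO cells, at 103, 125, 127, 131 and 112 CPM, against 86.1, 85.0, 100.4, 55.5 and 86.5 CPM in WT cells. Against medium it had fallen with 4µ8C in WT cells (log2 fold change -0.69) and was not called in KO cells. The groups did not overlap (log2 fold change 0.52, SE 0.11, adjusted p = 0.011), and the 4µ8C response of Stt3a differed between KO and WT cells, by 0.64 (SE 0.16, adjusted p = 0.019, where 1.79% of all genes were called). With the code term that difference was still 0.64 but not called (adjusted p = 0.4). Nor was it called without the low-count filter (adjusted p = 0.089) or with only the groups compared (0.1). The KO against WT call of Stt3a was lost with only the groups compared (log2 fold change 0.52, adjusted p = 0.3). It was also lost with outer codes alone (0.79, 0.14) and with inner codes alone (0.35, 0.2). Pdia4 in medium had 118, 208, 197, 200.1 and 159.6 CPM in KO cells, against 267, 277, 223, 217 and 233 CPM in WT cells. It was lower without overlap (log2 fold change -0.47, SE 0.15, adjusted p = 0.031), and the call was lost on leaving out 4 of the 10 libraries in turn. KO medium was all inner and WT medium all outer, and with the code term Pdia4 was at -0.31 (adjusted p = 0.62). Summed macrophage markers in medium were 1678 to 2217 CPM in KO and 2010 to 2960 CPM in WT cells, and C1qa, C1qb and Apoe were called lower, and their part in these results was not tested.

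Dnajb11, the J-domain co-chaperone that hands unfolded proteins to BiP, gave the largest KO against WT differences of the list in medium and with LPS, and its level followed the library codes. In medium it had 97.5, 84.5, 93.5, 104 and 88.6 CPM in KO cells, against 14.0, 26.2, 34.9, 35.5 and 35.6 CPM in WT cells (log2 fold change 1.68, SE 0.23, adjusted p = 1.4e-06). With LPS it had 99.6, 101, 104, 97.0 and 59.4 CPM in KO cells, against 30.4, 27.8, 30.8, 24.0 and 28.0 CPM in WT cells (log2 fold change 1.71, SE 0.24, adjusted p = 4.5e-06). All KO libraries exceeded all WT libraries in both pairs, and replicate 5, the only outer library of KO LPS, was the lowest of its group. With 4µ8C it had 95.6, 59.4, 57.6, 103 and 96.1 CPM in KO cells, against 88.2, 99.8, 102, 28.7 and 57.8 CPM in WT cells, and the groups overlapped (log2 fold change 0.10, SE 0.22, adjusted p = 0.9). With 4PBA it had 76.7, 67.4, 74.8, 74.8 and 60.0 CPM in KO cells, against 75.4, 73.2, 87.0, 81.3 and 71.9 CPM in WT cells (log2 fold change -0.14, SE 0.22, adjusted p = 0.88). The KO 4PBA and WT 4PBA libraries were all inner and their ranges overlapped.

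Over all groups, the 17 outer libraries ran from 14.0 to 59.4 CPM with a median of 30.8, and the 28 inner ones from 56.9 to 104 CPM with a median of 87.6. In the 4 groups that hold both kinds, 7 outer libraries were lower than 13 inner ones by a log2 difference of -0.86 (SE 0.11, edgeR adjusted p = 1.8e-06 over 9557 genes). Of all genes 350 (3.66%) were called in that comparison, 343 of them lower in outer libraries, and Dnajb11 was the 1 member of 40 called. With a code term the KO against WT difference was 0.84 in medium (adjusted p = 0.0099) and 1.01 with LPS (0.00037), against 1.68 and 1.71 without it. That term rests on the 4 groups with both kinds, none of whose outer libraries lay in row A. All WT medium and WT LPS libraries did, so these values cannot separate genotype from row A. Under the same term the difference of the 4µ8C response between genotypes was -0.70 (adjusted p = 0.61), against -1.58 (0.0041) without it. For the 4PBA response it was -0.98 (0.012), against -1.82 (8e-05, where 4.73% of all genes were called). Against WT LPS, Dnajb11 with 4µ8C was at 0.86 with the term (adjusted p = 0.065) and at 1.45 without it (0.0031). Set against LPS, the differences between genotypes were -1.60 for 4µ8C (0.016, where 0.399% of all genes were called) and -1.84 for 4PBA (0.00024, where 3.47% were). With the code term these were -0.87 (adjusted p = 0.17) and -1.15 (0.0015). For KO against WT 4PBA and for LPS against medium in WT cells, pairs with 1 kind of code, the values were -0.14 and -0.06, neither called. 4PBA against medium in KO cells, a further pair with inner codes only, was not called for Dnajb11 either. There every 4PBA library nonetheless lay below every medium library, by the values given above. The element ATTGGCCCACG printed above lies in the transcribed first bases of this gene, and no value here bears on it.

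**Figure D5:**
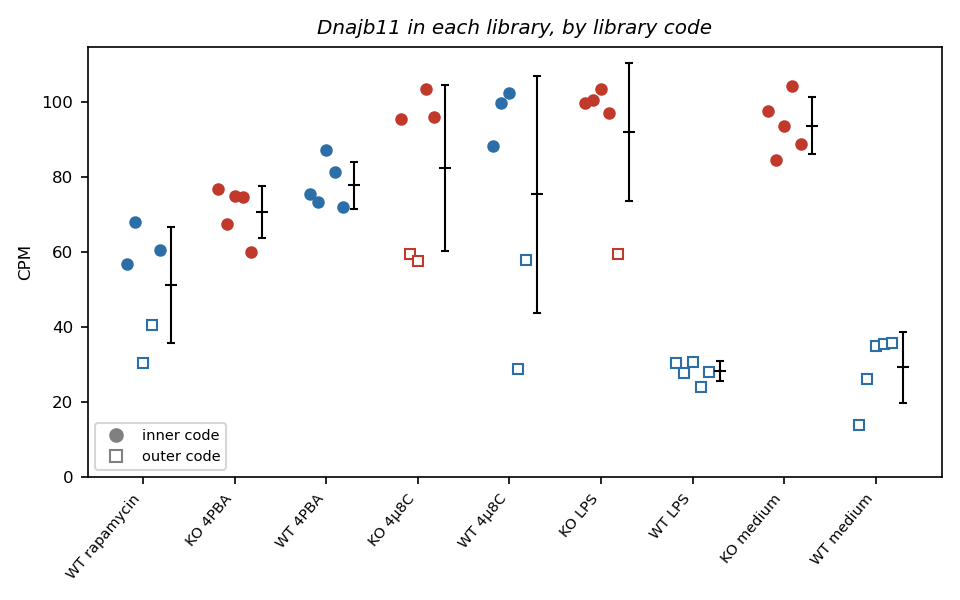
CPM of Dnajb11 in each of the 45 libraries by group, with outer codes as open squares, inner codes as filled circles and bars for group means ± SD (n = 5). Outer libraries run from 14.0 to 59.4 CPM and inner ones from 56.9 to 104 CPM, and within each of the 4 groups that hold both kinds the outer ones are the lowest.

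Across the 16 comparisons of 2 groups, many of which share libraries, Xbp1, Pdia4, Dnajb11 and P4hb were each called in 8. Pdia4 was lower in all 8, Dnajb11 higher in all 8, and Xbp1 was higher in the 2 comparisons of rapamycin and lower in 6. Hspa5 was called in 7, 4 higher and 3 lower. No comparison called Ern1, Canx, Dnajb9, Srp54a, Spcs3, Edem1, Edem3, Sel1l, Derl2 or Os9, 10 of the 40. The share of all tested genes that no comparison called was not computed, so the list cannot be said to be steadier than other genes. Among these are Canx, the membrane-bound partner of calreticulin, and 5 of the 9 degradation genes, Edem1, Edem3, Sel1l (the adaptor of Syvn1), Derl2 and the lectin Os9. Canx averaged 216 ± 6.93 CPM with rapamycin and 252 ± 46.9 CPM in medium (SD, n = 5 each), beside the fall of Calr in the same libraries.

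Other genes of the same pathways were read from lists that also were drawn up with earlier results known. The counts of each list were not tested against the shares of all tested genes given here. Rapamycin against medium called 9.68% of all tested genes higher and 13.5% lower. With rapamycin 3 of 17 further folding genes rose and 3 fell, among them the oxidase Ero1l (log2 fold change -1.32) and its relative Ero1lb (0.89). Of 26 further genes of import and glycosylation 1 rose and 6 fell, with Ssr2, the partner of Ssr1 (-0.89), and Ostc of the oligosaccharyltransferase (-0.70) at the lowest adjusted p. Of 20 genes of export and retrieval 3 rose and 6 fell, including the COPII coat genes Sec23b (-1.09) and Sec13 (-0.64), and of 14 further degradation genes 3 rose and 1 fell. In the PERK and ATF4 arm, the branch of the stress response that runs beside XBP1 and ATF6, 3 of 7 genes fell, Sesn2 (-1.07), Trib3 (-0.97) and Asns (-1.10), and 0 rose. With LPS in WT cells 18.8% of all tested genes were called higher and 21.3% lower. Of the 17 folding genes 3 rose and 5 fell there (Ero1l 1.18, Cnpy3, a chaperone of Toll-like receptors, -1.08). There 1 of the 26 import genes rose and 9 fell, Rpn1 of the oligosaccharyltransferase among them (-0.98), and Ppp1r15a, which recruits the phosphatase of the PERK arm, rose (1.01). With 4PBA against medium 7 of the 26 import genes fell in KO and 11 in WT cells, and 3 and 2 rose. Of all tested genes 16.2% fell and 17% rose in KO cells, and 21.3% fell and 22.4% rose in WT cells.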

How the data were processed

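Libraries were made with TruSeq chemistry from 1 µg of total RNA, per the labels' protocols. Expected counts were estimated per gene with RSEM by the authors, per the file headers, and deposited as raw estimates. The submitters' processing notes also name bcl2fastq. Of these counts 9.09% were not whole, and all were rounded. The deposited TPM values, scaled per library by RSEM per the file headers, were used to set the levels of genes side by side. Their group sums and spreads were given without TMM scaling, and no test used them. For versions, aligner, genome build and annotation, the sources used here give nothing.

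The 40 genes, their roles and the lists of other genes and markers were chosen with earlier results of these data known. Counts were scaled with TMM, and filterByExpr kept 10287 of 23420 genes. They were tested, two-sided, with edgeR 4.0.16 (limma 3.58.1, R 4.3.3), by its robust quasi-likelihood test, with all 45 libraries in 1 fit of group means (36 residual degrees of freedom, common dispersion 0.0372). This gave 16 comparisons of 2 groups and 5 differences between genotypes, each with Benjamini-Hochberg adjustment over all genes tested. Standard errors come from the F statistic. Full values per library were given for at most 6 called members a comparison, those with the lowest adjusted p. Of genes outside the 40, at most 4 called genes a list, by adjusted p, and Bag6 could be named.

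Alternatives were DESeq2 1.42.0, its size factors, no low-count filter, a term for outer or inner library codes, a replicate block, only the groups compared and each library left out in turn. Fits of outer or inner codes alone were added after seeing the data. The fit was tested on simulated data. Depth ran from 1509219 to 4737736 counts, and its sampling error enters each SE. The labels call the replicates biological and do not describe them further. Replicate numbers paired libraries, every correlation of deviations over 2000 genes exceeding 0.1, for the 3 treatments against medium in KO cells, 4PBA against medium in WT cells and 4PBA against LPS in KO cells (r = 0.13 to 0.72). Promoter windows came from the RefSeq tables of GRCm38.p6.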

Additional observations from a re-analysis of the deposited data

Results flagged for a closer look

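Of 198 series of 5 libraries tested, 1 for each named gene and group, 14 held a library far from the other 4, and chance alone gives such a gap in about 1 in 20 series, 5%. Replicate 4 of WT 4µ8C, the library with the lowest depth, stood apart in 4 of them: Sec61g was at 138 CPM there against 82.3 to 96.6 in the others, Sec61b at 82.4 against 43.7 to 48.1, Spcs2 at 167 against 74.7 to 97.2 and Spcs1 at 155 against 83.1 to 99.6. Replicate 5 of WT LPS stood apart in Hspa5, at 783 CPM against 562 to 612, and in Pdia4, at 96.2 against 126 to 134. Replicate 5 of KO LPS, the outer library of its group, had Dnajb11 at 59.4 CPM against 97 to 104. In KO 4µ8C, Xbp1 was at 150 CPM in replicate 4 against 213 to 234 in the others, and Pdia3 at 330 CPM in replicate 2 against 228 to 254. In WT 4PBA, Hyou1 was at 8.03 CPM in replicate 3 against 12.4 to 14, and Sec61b at 61.2 CPM in replicate 1 against 47.3 to 50.6. Sec61a1 was at 170 CPM in replicate 3 of WT rapamycin against 123 to 133, Pdia3 at 206 CPM in replicate 1 of KO medium against 257 to 273, and Spcs1 at 94.7 CPM in replicate 1 of WT medium against 77.3 to 80.1.

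The response to a treatment differed between genotypes in 5 cases, each by edgeR's test of the KO minus WT difference of log2 fold changes. Dnajb11 differed by -1.58 for 4µ8C and by -1.82 for 4PBA, each against medium, and by -1.60 and -1.84 against LPS. Stt3a differed by 0.64 for 4µ8C against medium. Dnajb11 and Stt3a values with the library code as a term are given with the results, and for 4µ8C they were not called.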

How the results depend on the processing

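No value reversed under any setting. Of 125 called values of members, 121 stayed called with DESeq2, 120 with its size factors, 125 with the replicate block, 107 with only the groups compared, 103 without the low-count filter and 96 with the code term, and 1154 of 1300 fits that left out 1 library kept their call. Outer codes alone kept 34 of 59 and inner codes alone 34 of 37 values, fits with fewer libraries. Without the low-count filter, which roughly doubled the genes tested, 1 member was called for KO against WT 4µ8C, 9 for WT 4µ8C against medium, 4 for WT 4PBA and 3 for KO 4PBA against LPS, and 1 for the 4µ8C response between genotypes. With the code term 1 was called for KO against WT medium, 6 for WT 4PBA against medium, 0 for WT 4µ8C and 3 for WT 4PBA against LPS, and 0 for the 4µ8C response between genotypes, against medium or LPS. With the replicate block 13 were called for WT 4PBA and 8 for KO 4PBA against LPS, and it changed no other count by more than 1.5 times. With only the groups compared the counts were 1 for KO against WT medium, 0 for KO against WT 4µ8C, 1 for KO against WT 4PBA, 8 for WT 4µ8C against medium, 15 for WT 4PBA against LPS, and 1 and 0 for the 4µ8C response between genotypes against medium and LPS. With outer codes alone they were 1 for KO against WT 4µ8C, 8 for WT 4µ8C and 10 for rapamycin against medium and 0 for WT 4µ8C against LPS, and with inner codes alone 0 for KO against WT 4µ8C. DESeq2 called 8 for KO 4PBA against LPS. The cause of these shifts was not tested. Leaving out 1 library in turn gave 1 to 3 called members for KO against WT in medium and with LPS, 1 to 2 with 4µ8C, 7 to 13 for LPS in KO cells (7 without KO medium replicate 3), 4 to 9 for WT 4PBA and 3 to 5 for KO 4PBA against LPS (3 without KO 4PBA replicate 1). Depth limits Edem3 and Srp54a most, since they have few counts.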
